A study of Homo sapiens with 4 samples.

Results

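The genes described here are 240 genes with a symbol that starts with LINC, the prefix of long intergenic noncoding RNA genes. They were well covered in a pair of lines made from the triple-negative breast cancer line MDA-MB-231. A gene was included if its CPM, its count divided by the library's total count and multiplied by 1000000, averaged at least 3 in the reporter-positive or in the reporter-negative line, and 8 symbols were left out by name, of which 5 would have reached that value. The 240 genes are 12.7% of the 1897 listed LINC genes, in a table of 43714 genes. By annotated type, 191 of them are long intergenic noncoding RNA genes, 23 are processed transcripts and 11 are pseudogenes. The others are 8 antisense, 4 protein-coding, 2 bidirectional promoter and 1 sense-overlapping. Of the 240, 198 reached 3 CPM in both lines, 27 in the reporter-positive line alone and 15 in the reporter-negative line alone. The genes were thus chosen by their levels in the same 4 libraries, and those levels are given as a description.

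RNA was sequenced from 2 libraries of MDA-MB-2317TGP-POS cells and 2 libraries of MDA-MB-2317TGP-NEG cells. Both lines carry 7TGP, a plasmid in which 7 TCF-binding sites drive EGFP when beta-catenin signals in the nucleus, and both were selected with 3 ug/mL puromycin and grown with 10% FBS. After 8 rounds of cell sorting and expansion, more than 80% of MDA-MB-2317TGP-POS cells had EGFP, and more than 95% of MDA-MB-2317TGP-NEG cells, which the labels call the control, had none. Each reporter state is thus 1 sorted line, so reporter activity and any other difference between these lines cannot be told apart. Whether the 2 libraries per line stem from separate cultures is not stated in the labels. The p-values therefore measure only the spread between libraries, which may be technical.

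Long noncoding RNAs are transcripts with little or no protein-coding potential, usually spliced and polyadenylated, and often less abundant than messenger RNAs. Some act on genes near their own locus, some bind proteins or microRNAs elsewhere in the cell, and for many only the transcript is known. In Wnt signalling, beta-catenin binds TCF/LEF proteins on DNA and turns on their target genes, and the reporter reads that step.

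Sequences are shown for the genes with the largest difference in level and for the pair of RNAs in the series title, LINC00645 and miR-452. The mature hsa-miR-452-5p (RefSeq, GRCh38.p14, chrX:151959678-151959699, minus strand) is printed with its seed, bases 2 to 8, in capitals, and the stretch of LINC00645 that pairs with that seed has the matching letters AAACAGT in capitals.
hsa-miR-452-5p: aACUGUUUgcagaggaaacuga
LINC00645-203 (chromosome 14), bases 1767 to 1773 of 3512 in capitals: tcttattttgtAAACAGTgttattttagc
The match occurred once in LINC00645-203 and once in LINC00645-202 (bases 1739 to 1745 of 3484), which are 2 of the 3 annotated LINC00645 transcripts. Among the 240 genes, 44 (18.3%) had the same letters at least once in their longest transcript, at 0.093 matches per kb over all 240 and 0.285 per kb in LINC00645. A match of letters is a description and not a binding site.

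Promoters, from 250 bases before to 50 bases after a transcription start (RefSeq, GRCh38.p14), were searched on both strands for the TCF/LEF word CAAAG preceded by 2 bases that are each A or T, which gives 4 words of 7 letters. A word was present in 30 of 174 promoters (17.2%) of the 148 genes that matched an entry, against 13.8% of 35116 promoters of all genes. It was in 5 of 20 promoters of LINC genes that rose in the reporter-positive line and in 3 of 22 promoters of those that fell, by the test given below. The 4 printed here are those of LINC00839, which had the largest difference in level, of LINC01982 and LINC01411, both among the largest rises, and of LINC00705, the largest fall among genes at 3 CPM in both lines. LINC02506, LINC01320 and LINC00645 are named only. Only LINC01982 of these 4 holds a word, in capitals and read on the opposite strand, 200 bases before the start.
LINC00839 promoter, chr10:42475241-42475540, plus strand: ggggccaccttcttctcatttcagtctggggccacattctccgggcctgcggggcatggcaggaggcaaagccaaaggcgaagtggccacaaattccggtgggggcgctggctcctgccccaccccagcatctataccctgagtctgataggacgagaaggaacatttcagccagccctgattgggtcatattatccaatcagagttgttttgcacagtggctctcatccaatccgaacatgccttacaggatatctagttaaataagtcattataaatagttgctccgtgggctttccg
LINC01982 promoter, chr17:52390272-52390571, plus strand: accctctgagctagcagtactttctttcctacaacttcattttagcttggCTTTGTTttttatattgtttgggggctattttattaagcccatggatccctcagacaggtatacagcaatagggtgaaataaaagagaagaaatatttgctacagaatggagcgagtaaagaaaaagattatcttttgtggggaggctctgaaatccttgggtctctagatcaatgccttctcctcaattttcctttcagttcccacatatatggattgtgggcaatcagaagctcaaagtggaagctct
LINC01411 promoter, chr5:174336104-174336403, plus strand: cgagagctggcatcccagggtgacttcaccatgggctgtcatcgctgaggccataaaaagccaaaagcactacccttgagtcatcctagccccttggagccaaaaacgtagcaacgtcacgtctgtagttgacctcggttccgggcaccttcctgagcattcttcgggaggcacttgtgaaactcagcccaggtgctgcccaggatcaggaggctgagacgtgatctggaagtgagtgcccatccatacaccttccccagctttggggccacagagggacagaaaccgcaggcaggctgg
LINC00705 promoter, chr10:4655906-4656205, plus strand: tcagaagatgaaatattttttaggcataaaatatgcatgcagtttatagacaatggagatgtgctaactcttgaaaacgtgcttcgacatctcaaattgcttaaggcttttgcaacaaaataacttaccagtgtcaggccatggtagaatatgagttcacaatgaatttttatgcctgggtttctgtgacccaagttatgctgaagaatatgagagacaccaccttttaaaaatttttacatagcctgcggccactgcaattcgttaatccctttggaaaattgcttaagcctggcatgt

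The 4 libraries had 62539034 and 55894092 total counts in the reporter-positive line and 63034563 and 58429705 in the reporter-negative line, and the 240 genes held 0.396% of all counts. Libraries of a line ranked genes alike (Spearman 0.992 over genes in each line) and differed by more than counting noise. Markers of MDA-MB-231 cells (VIM, CD44, AXL, MSN, CAV1 and FOSL1) summed to 3095 to 3340 CPM in the reporter-positive and 4456 to 4535 CPM in the reporter-negative libraries. VIM alone had 1257 and 1343 CPM in the reporter-positive and 2714 and 2625 CPM in the reporter-negative libraries, while MSN and CD44 were higher in both reporter-positive libraries. All 9 luminal markers summed to 560 to 608 CPM in the reporter-positive and 774 to 814 CPM in the reporter-negative libraries, with FOXA1, CDH1 and PGR under 1 CPM in every library. KRT19, KRT8 and KRT18 made up most of this sum and were lower in both reporter-positive libraries, while ESR1 and FOXA1 were higher. Blood cell markers, 4 of 5 listed, summed to 6.60 to 6.89 CPM in the reporter-positive and 4.68 to 5.52 CPM in the reporter-negative libraries. Fibroblast markers summed to 10.3 CPM in the reporter-positive and at least 9.96 CPM in the reporter-negative libraries, and endothelial markers to 69.5 to 85.9 CPM in the reporter-positive and 82.3 to 95.9 CPM in the reporter-negative libraries. PECAM1 made up most of the endothelial sum, at 75.9 and 58.9 CPM in the reporter-positive and 88.9 and 73.0 CPM in the reporter-negative libraries. KDR and CDH5 were higher in both reporter-positive libraries, with CDH5 under 1 CPM in every library. The part of these levels in the results below was not tested.

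Counting differences of any size that passed, the LINC genes changed in both directions and about as often as other genes at 3 CPM in both lines. Of the 198 that reached 3 CPM in both lines, 32 rose in the reporter-positive line (16.2%), 28 fell (14.1%) and 138 did not pass (edgeR quasi-likelihood test, Benjamini-Hochberg adjusted p under 0.05 over all 30952 genes tested). Among the 17003 tested genes that reached 3 CPM in both lines, 15.8% rose and 15.9% fell, and among all 30952 tested genes 11.6% rose and 10.9% fell. The share of LINC genes called is near that background. With total counts as the scaling, which moved the median of all genes by -0.08 on the log2 scale, 19 rose and 31 fell, against 9.79% higher and 19.9% lower among the 17003 genes with that scaling. In these bulk samples, fewer cells with an RNA and less of it per cell cannot be told apart.

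The median log2 fold change (reporter-positive over reporter-negative) was 0.04 over the 198 LINC genes and 0.00 over the 17003 genes. A difference of at least 2-fold, passing or not, was seen in 5.56% of the 198, in 1.92% of the 17003 and in 5.55% of all 30952 tested genes. Of the LINC genes that passed, 8 rose and 2 fell by at least 2-fold. Among the 17003 genes, 209 rose and 114 fell by at least 2-fold and passed. Both reporter-positive libraries lay above both reporter-negative libraries for 63 of the 198 and below them for 54, and the libraries overlapped for 81. The matching counts over the 17003 genes are not given, so these counts are a description. All 60 genes that passed were among those without overlap. Of the 826 tested LINC genes under the level threshold, 61 rose and 40 fell, which is 12.2%. Over all 30952 tested genes, which include those at higher levels, 22.4% passed. The share over all tested genes under the threshold is not given, so the 12.2% is a description.

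**Figure D1:**
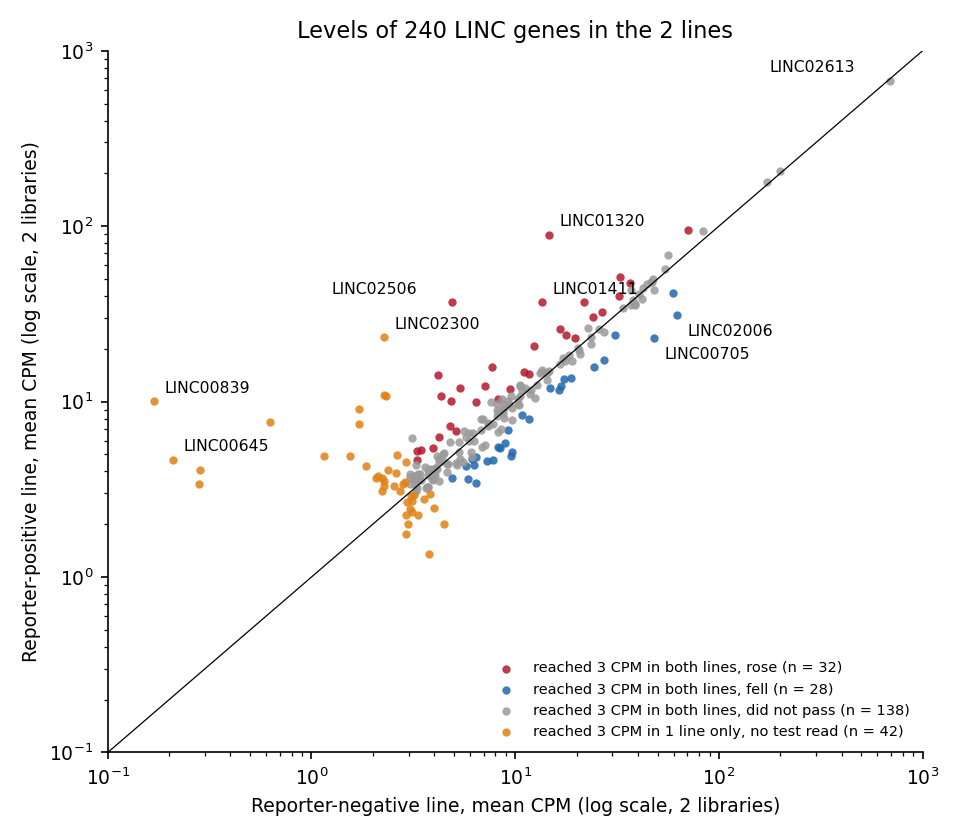
Mean CPM of each of the 240 LINC genes in the reporter-positive line (vertical, log scale) against the reporter-negative line (horizontal, log scale), 2 libraries each, with the line of equal levels; colours mark the 32 that rose, the 28 that fell, the 138 that did not pass and the 42 that reached 3 CPM in 1 line. Most genes lie on the line of equal levels, and LINC00839 and LINC00645 lie farthest above it.

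Among the genes at 3 CPM in both lines, the 4 largest rises were at LINC02506, LINC01320, LINC01982 and LINC01411. LINC02506 (ENSG00000251129, chr4:31997397-32155406, plus strand, GRCh38), a gene of 158 kb with no overlapping gene, had 2401 and 1849 counts in the reporter-positive libraries, against 324 and 288 in the reporter-negative libraries. Its libraries did not overlap between lines, and it rose with a log2 fold change of 2.91 ± 0.09 (SE; edgeR with Benjamini-Hochberg, adjusted p = 4.56e-15). The nearest protein-coding gene, PCDH7, a protocadherin gene 851 kb away, rose as well, with a log2 fold change of 2.17 (edgeR with Benjamini-Hochberg, adjusted p = 2.78e-14).

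LINC01320 (ENSG00000228262, chr2:33706886-34738231, plus strand), which spans 1031 kb, had 6004 and 4380 counts in the reporter-positive libraries, against 881 and 950 in the reporter-negative libraries. This is 89.6 ± 8.49 CPM and 14.7 ± 1.13 CPM (SD, n = 2 each), a log2 fold change of 2.61 ± 0.09 (SE; edgeR with Benjamini-Hochberg, adjusted p = 1.44e-14). Genes inside its span, chiefly the pseudogene SLC25A5P2, held 22.5% of its counts, and without them the log2 fold change was 3.08. The nearest coding gene, FAM98A, 108 kb away, rose far less, with a log2 fold change of 0.35 (edgeR with Benjamini-Hochberg, adjusted p = 0.00255).

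LINC01411 (ENSG00000249306, chr5:174336295-174532457, plus strand) had 2504 and 1779 counts in the reporter-positive libraries, against 823 and 878 in the reporter-negative libraries. It rose with a log2 fold change of 1.44 ± 0.09 (SE; edgeR with Benjamini-Hochberg, adjusted p = 4.50e-10). GAPDHP71, a processed pseudogene of the glycolytic gene GAPDH inside it on the same strand, held 40.9% of these counts and had a log2 fold change of -0.22 that did not pass (edgeR with Benjamini-Hochberg, adjusted p = 0.140). With the pseudogene's counts taken away, 1892 and 1307 counts were left in the reporter-positive libraries and 147 and 188 in the reporter-negative libraries, a log2 fold change of 3.36. The deposited count of LINC01411 thus gave a smaller difference than the rest of its span.

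LINC01982 (ENSG00000263317, chr17:52390515-52535701, plus strand), whose promoter holds the TCF/LEF word shown above, had 994 and 649 counts in the reporter-positive libraries, against 250 and 271 in the reporter-negative libraries. No listed gene overlaps it, and it rose with a log2 fold change of 1.76 ± 0.13 (SE; edgeR with Benjamini-Hochberg, adjusted p = 6.47e-09). Its nearest coding gene, CA10, lies 230 kb away and had a log2 fold change of 0.25 that did not pass (edgeR with Benjamini-Hochberg, adjusted p = 0.668).

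The other large rises were between 1.70-fold and 2.49-fold. LINC02262 rose 2.49-fold, LINC03033 2.24-fold, LINC02694 2.08-fold, LINC02328 2.05-fold, LINC01139 1.72-fold and LINC02693 1.70-fold, each with no overlap of libraries between lines (edgeR with Benjamini-Hochberg, adjusted p of 9.91e-06 or less). LINC03033 overlaps the coding gene ENSG00000258989, which rose with a log2 fold change of 0.92 (edgeR with Benjamini-Hochberg, adjusted p = 3.80e-07). Reads of these genes may thus be shared. The nearest coding gene outside LINC03033, at 19.6 kb, is PRKCH, the gene of a protein kinase C, which rose with a log2 fold change of 0.69. LINC02328 lies 280 kb from FLRT2, a membrane protein gene that fell, with a log2 fold change of -0.34 (edgeR with Benjamini-Hochberg, adjusted p = 0.00148). For LINC02693, the median log2 fold change of 9 tested coding genes within 1 Mb was 0.70, close to its own 0.76. LINC02693 and LINC02694 are annotated as protein-coding in GENCODE release 29 under older symbols, as are 2 others of the 240.

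Among the genes at 3 CPM in both lines, the largest fall was in a locus known from breast cancer. LINC00705 (ENSG00000225269, chr10:4655427-4662419, plus strand) had 1524 and 1148 counts in the reporter-positive libraries, against 3173 and 2826 in the reporter-negative libraries. It fell, with a log2 fold change of -1.05 ± 0.08 (SE; edgeR with Benjamini-Hochberg, adjusted p = 3.80e-09). It lies wholly inside MANCR, a mitotically associated long noncoding RNA described in triple-negative breast cancer, on the opposite strand. MANCR had 4705 and 3706 counts in the reporter-positive libraries and 10219 and 8776 in the reporter-negative libraries, a log2 fold change of -1.06 (edgeR with Benjamini-Hochberg, adjusted p = 2.41e-09). LINC00705 covers 25.0% of the MANCR span and held 31.6% of its counts, and counts per kb inside it were 1.39 times those in the rest of MANCR. The strand setting of the counts is not given, so reads of the 2 genes cannot be separated.

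LINC02006 (ENSG00000238755, chr3:153384934-153980186, minus strand) had 2063 and 1524 counts in the reporter-positive libraries, against 4333 and 3451 in the reporter-negative libraries. It fell, with a log2 fold change of -1.01 ± 0.09 (SE; edgeR with Benjamini-Hochberg, adjusted p = 1.04e-06). A noncoding gene inside it on the opposite strand, ENSG00000243486, held 43.0% of its counts and fell alike, by 1.06 on the log2 scale. ARHGEF26, a coding gene within 1 Mb of LINC02006, rose instead, with a log2 fold change of 0.52 (edgeR with Benjamini-Hochberg, adjusted p = 3.13e-04).

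The other 8 of the 10 largest falls were between 1.56-fold and 1.96-fold. LINC01847, which overlaps the adrenergic receptor gene ADRA1B in part, fell 1.96-fold, LINC01833 1.86-fold, LINC02970 1.85-fold and LINC02984 1.68-fold. LINC00589 fell 1.63-fold, LINC00205 1.59-fold, LINC00842 1.57-fold and LINC02343 1.56-fold (edgeR with Benjamini-Hochberg, adjusted p of 8.47e-04 or less for all 8). LINC01833 lies 2.70 kb from SIX3, a homeobox gene that had 27 and 17 counts in the reporter-positive libraries and 44 and 37 in the reporter-negative libraries and did not pass (edgeR with Benjamini-Hochberg, adjusted p = 0.143). LINC02970 lies 39.3 kb from the transporter gene SLCO4A1, which fell as well (edgeR with Benjamini-Hochberg, adjusted p = 3.04e-09), and 21 of 34 tested coding genes within 1 Mb of it passed as lower, against 14.8% of all tested protein-coding genes. LINC00205 lies 0.152 kb from POFUT2, a fucosyltransferase gene with a log2 fold change of 0.02 that did not pass (edgeR with Benjamini-Hochberg, adjusted p = 0.894).

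**Figure D2:**
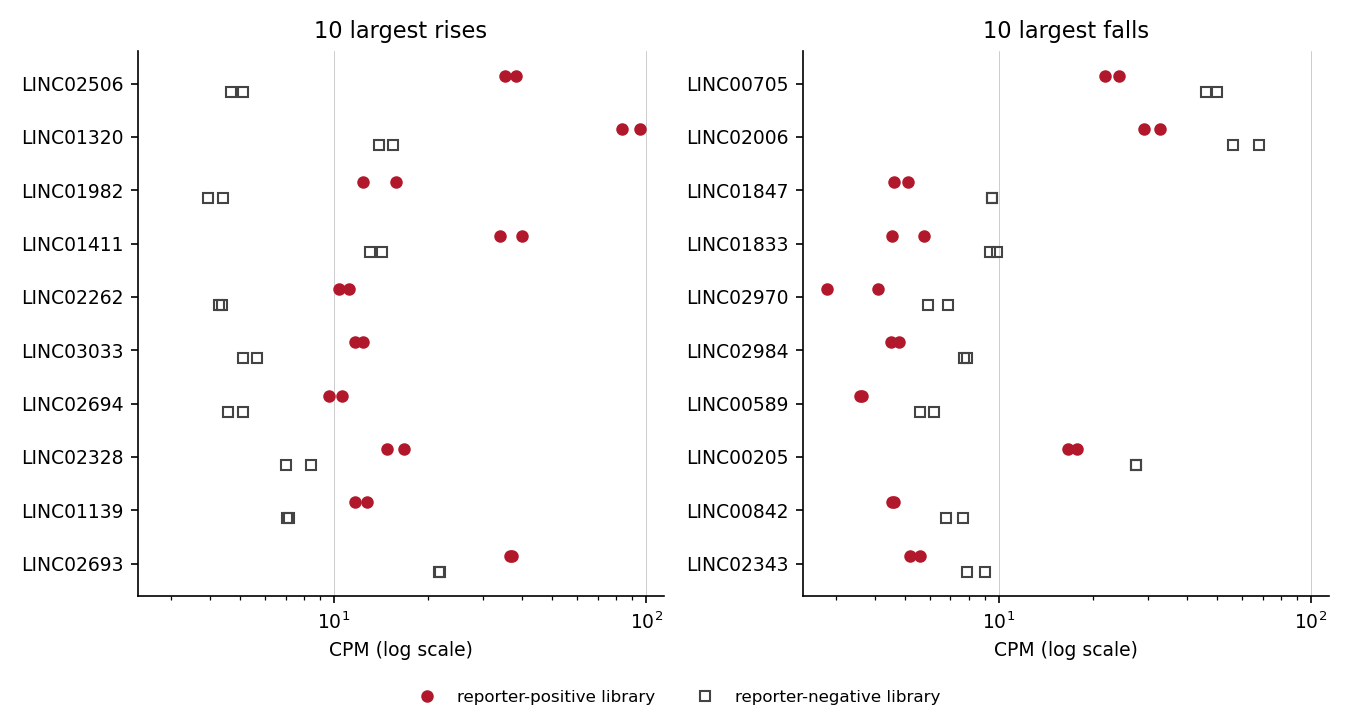
CPM (log scale) of each library for the 10 LINC genes with the largest rises (left) and the 10 with the largest falls (right), reporter-positive libraries as filled circles above reporter-negative libraries as open squares. In all 20 genes the symbols of the lines are apart, from LINC02506 at 36.8 CPM and 4.90 CPM on average to LINC02343 at 5.41 CPM and 8.46 CPM.

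The widest differences in level were among the 42 genes that reached 3 CPM in 1 line, which were chosen through that difference and are described with no test. The 27 that reached it in the reporter-positive line had log2 fold changes of 0.19 to 5.90 (median 0.92), and 13 of them were at least 2-fold. The 15 that reached it in the reporter-negative line had log2 fold changes of -1.48 to -0.10 (median -0.36), and 2 were at least 2-fold.

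LINC00839 (ENSG00000185904, chr10:42475543-42495336, plus strand), reported elsewhere as induced by MYC in breast cancer cells, had 663 and 510 counts in the reporter-positive libraries, against 11 and 10 in the reporter-negative libraries. This is 10.1 ± 0.582 CPM and 0.168 ± 0.00737 CPM (SD, n = 2 each), a 59.7-fold difference. No listed gene overlaps it, and the median log2 fold change of 7 tested coding genes within 1 Mb was -0.07. Of these 7 none rose and 1 fell.

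Chromosome 14 held 4 of these genes, and chromosomes 4, 7 and 10 held as many. LINC00645 (ENSG00000258548, chr14:27612588-27639636, plus strand), the RNA of the series title, had 336 and 208 counts in the reporter-positive libraries, against 11 and 15 in the reporter-negative libraries, and lies inside MIR3171HG on the opposite strand, whose log2 fold change was 3.58. Over all 4 libraries its counts per kb were 1.80 times those in the rest of MIR3171HG. MIR3171HG had 3884 and 2652 counts in the reporter-positive libraries, against 245 and 341 in the reporter-negative libraries. The strand setting of the counts is not given, so reads of LINC00645 and MIR3171HG cannot be separated. LINC02300, at chr14:28592223-28613623, had 1547 and 1147 counts in the reporter-positive libraries, against 151 and 134 in the reporter-negative libraries. LINC02303 had 251 and 148 counts in the reporter-positive libraries, against 17 and 18 in the reporter-negative libraries. LINC00639 had 588 and 457 counts in the reporter-positive libraries, against 100 and 114 in the reporter-negative libraries. In each of the 4 genes both reporter-positive libraries lay above both reporter-negative libraries.

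Among the others, some lay within 1 Mb of a coding gene, or inside one, that differed in the same direction. Those named here are examples, and how many of these genes had such a neighbour is not given. LINC00351 had 264 and 206 counts in the reporter-positive libraries, against 9 and 26 in the reporter-negative libraries, and lies 248 kb from SLITRK6, a neuronal membrane protein gene with a log2 fold change of 5.65 (edgeR with Benjamini-Hochberg, adjusted p = 6.11e-14). LINC02492 had 520 and 366 counts in the reporter-positive libraries, against 30 and 48 in the reporter-negative libraries, and lies 419 kb from TRIML2, which rose with a log2 fold change of 1.09. LINC02246 had 328 and 241 counts in the reporter-positive libraries, against 70 and 74 in the reporter-negative libraries, and lies 42.7 kb from NRIP1, a nuclear receptor co-repressor gene, which rose with a log2 fold change of 0.90. ENSG00000235609, a noncoding gene that overlaps the spans of both LINC02246 and NRIP1, had a log2 fold change of 0.98. Reads of these genes may thus be shared. LINC00993 lies inside ANKRD30A, a breast differentiation antigen gene on the same strand, which had 2872 and 2236 counts in the reporter-positive libraries and 168 and 197 in the reporter-negative libraries. LINC00993 itself had 724 and 523 counts in the reporter-positive libraries, against 142 and 146 in the reporter-negative libraries. Less the counts of TMEM161BP1 and other genes inside it, 583 and 399 were left in the reporter-positive and 18 and 27 in the reporter-negative libraries. Its reads and those of ANKRD30A cannot be told apart.

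LINC02141 had 546 and 324 counts in the reporter-positive libraries, against 101 and 114 in the reporter-negative libraries, and LINC01399 had 677 and 580 in the reporter-positive libraries, against 171 and 114 in the reporter-negative libraries. In the other direction, LINC02476 had 82 and 74 counts in the reporter-positive libraries, against 268 and 205 in the reporter-negative libraries, and LINC01134 had 136 and 96 in the reporter-positive libraries, against 296 and 263 in the reporter-negative libraries. None of these 4 had libraries that overlapped between lines. The further genes that reached 3 CPM in the reporter-positive line alone were LINC02725, LINC01204, LINC02027, LINC01615, LINC01478, LINC00243, LINC01060, LINC02223, LINC01592, LINC00536, LINC00265, LINC02360, LINC02237, LINC02475, LINC02256 and LINC01426. Those in the reporter-negative line alone were LINC01266, LINC00235, LINC01237, LINC00665, LINC01117, LINC01772, LINC02932, LINC00654, LINC00899, LINC03072, LINC02641, LINC02649 and LINC02449.

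The genes just inside the threshold were LINC02641 at 2.207 CPM in the reporter-positive line and 3.002 CPM in the reporter-negative line, LINC01426 at 3.005 CPM in the reporter-positive and 2.296 CPM in the reporter-negative line, and LINC02449 at 1.721 CPM in the reporter-positive and 3.008 CPM in the reporter-negative line. Just outside were LINC02955 at 2.971 CPM in the reporter-positive and 2.995 CPM in the reporter-negative line, LINC02863 at 2.704 CPM in the reporter-positive and 2.983 CPM in the reporter-negative line, and LINC02983 at 2.254 CPM in the reporter-positive and 2.980 CPM in the reporter-negative line.

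Many of the counts assigned to these genes were also counted at another gene. Spans of 170 of the 240 overlap another listed gene and 70 do not, and in 60 the overlapping gene with the most counts had more counts than the LINC gene. In all 121 with a listed gene inside and counts there, the summed counts of the inner genes stayed below those of the LINC gene in each library. Inner genes held over 50% of the counts of 37 LINC genes and over 90% of 17. The most counted inner gene was a pseudogene in 30 of the 37, a coding gene in 2 and a noncoding gene in 5.

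The LINC genes with the most counts were mostly of this kind, 7 of the 12 highest. LINC02613, at 675 ± 70.3 CPM in the reporter-positive and 692 ± 13.9 CPM in the reporter-negative line (SD, n = 2 each), held 99.8% of its counts at RPLP0P6, a processed pseudogene of the ribosomal protein gene RPLP0. LINC01500 held 99.0% at RPL31P4, LINC01709 98.9% at RPSAP19 and LINC00886 84.3% at PA2G4P4, all processed pseudogenes. LINC02067 held 99.9% at ENSG00000269888, a noncoding gene on its strand. None of these 5 passed (edgeR with Benjamini-Hochberg, adjusted p of 0.151 or more), nor did LINC02211 and LINC01138, with log2 fold changes of 0.08 and 0.03. The signs of the log2 fold changes of LINC02067, LINC01500, LINC00886, LINC02211 and LINC01138 turned under total count scaling. Without the reporter-positive library numbered 1, LINC01709 and LINC00886 passed with log2 fold changes of 0.23 and 0.17 (edgeR with Benjamini-Hochberg, adjusted p = 0.00128 and 0.0483). Where a library is left out, its line has 1 library, assumed to vary like the pair of the other line, and without this one 4704 of all genes rose, against 3576 with all 4 libraries.

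Of the 12, LINC02742 (ENSG00000249867, chr11:28702615-29063821, plus strand) held almost all of its own counts. It had 6543 and 4468 counts in the reporter-positive libraries, against 4848 and 3997 in the reporter-negative libraries, and rose with a log2 fold change of 0.42 ± 0.10 (SE; edgeR with Benjamini-Hochberg, adjusted p = 0.00737). Without the reporter-negative library numbered 2 it did not pass (edgeR with Benjamini-Hochberg, adjusted p = 0.0978), nor with total count scaling (0.0728). LINC00472, reported as a tumour suppressor in breast cancer, had 4702 and 3245 counts in the reporter-positive libraries and 3929 and 3078 in the reporter-negative libraries, and did not pass (edgeR with Benjamini-Hochberg, adjusted p = 0.0947). It passed without the reporter-negative library numbered 1 (0.00390), without the reporter-positive library numbered 2 (5.21e-09), with the library number as a block (8.34e-04) and by DESeq2 (0.0496). OGFRL1, the nearest coding gene to LINC00472 at 35.4 kb, rose with a log2 fold change of 1.17. ENSG00000269966, a noncoding gene that overlaps the spans of both, had 15173 and 13608 counts in the reporter-positive libraries, against 8768 and 7792 in the reporter-negative libraries. It rose with a log2 fold change of 0.92 (edgeR with Benjamini-Hochberg, adjusted p = 1.76e-08). Reads of LINC00472 and ENSG00000269966 may thus be shared.

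**Figure D3:**
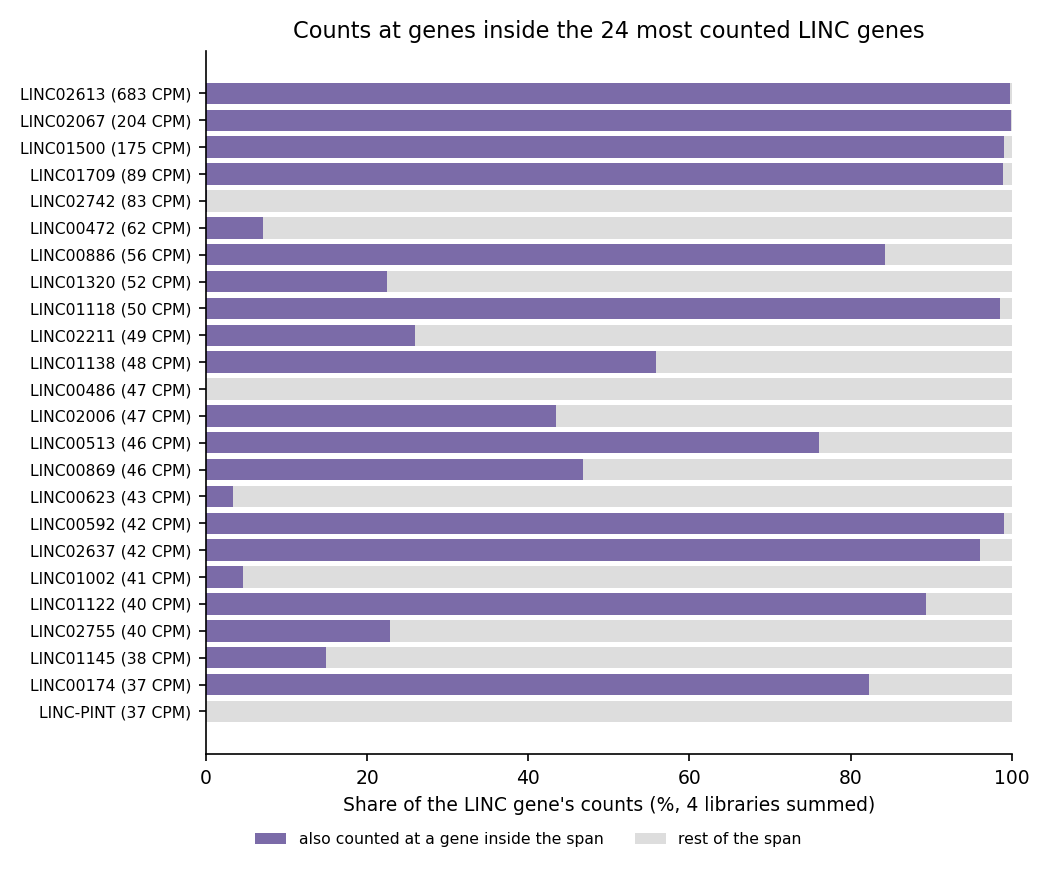
Share of the counts of the 24 LINC genes with the most counts, over 4 libraries, that was also counted at listed genes inside their span (dark) and the rest (light), in percent; the mean CPM over 4 libraries stands beside each name. The 4 most counted genes lie at 98.9% or more, and LINC02742 at 0.191%.

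In 4 LINC genes that passed, nearly all counts lay at an inner gene. LINC01118 had 2602 and 2164 counts in the reporter-positive libraries, against 3709 and 3725 in the reporter-negative libraries, 98.5% of them at SOCS5, a suppressor of cytokine signalling. Both had a log2 fold change of -0.53. LINC00592 held 98.8% of its counts at the keratin gene KRT80 and had a log2 fold change of 0.36, against 0.37 for KRT80. LINC02637 held 96.1% at RHEBP1, a processed pseudogene of the mTOR activator RHEB, and LINC02893 99.6% at CDC20P1, a processed pseudogene of the anaphase activator CDC20. LINC02637 had a log2 fold change of 0.64, against 0.66 for RHEBP1, and LINC02893 and CDC20P1 both had 0.31. With inner counts taken away, LINC02637 was left with 91 and 102 counts in the reporter-positive and 101 and 91 in the reporter-negative libraries, and LINC02893 with 11 and 7 in the reporter-positive and 8 and 10 in the reporter-negative libraries. None of the 4 then passed (edgeR with Benjamini-Hochberg, adjusted p of 0.570 to 0.933).

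Parent genes, from which the pseudogenes derive, were read beside them. RHEB had a log2 fold change of 0.71, beside 0.66 for RHEBP1, CDC20 0.35 beside 0.31 for CDC20P1, and SLC25A5, a mitochondrial ADP/ATP carrier, 0.78 beside 0.90 for SLC25A5P2 in LINC01320. FDPS, an enzyme of isoprenoid synthesis, had -0.27 beside -0.29 for FDPSP1 in LINC01036. The pair farthest apart among those read was GAPDHP71, at -0.22, and GAPDH, at 0.00. Reads of near-identical copies may be assigned to either, so these pseudogene counts are uncertain. LINC02893, which rose with a log2 fold change of 0.31 (edgeR with Benjamini-Hochberg, adjusted p = 0.0117), did not pass with total count scaling (0.0683), without the reporter-negative library numbered 2 (0.104) or without the reporter-positive one numbered 2 (0.109).

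At LINC01036 the difference was larger with inner counts taken away. LINC01036 (ENSG00000230426, chr1:187070700-187686622, plus strand) had 2124 and 1613 counts in the reporter-positive libraries, against 1628 and 1719 in the reporter-negative libraries, a log2 fold change of 0.27 ± 0.08 (SE; edgeR with Benjamini-Hochberg, adjusted p = 0.0181). It no longer passed when a reporter-negative library was left out (adjusted p = 0.305 without number 1 and 0.0517 without number 2) and with total count scaling (0.216). Less FDPSP1, which held 60.6%, 1142 and 754 counts were left in the reporter-positive libraries and 408 and 488 in the reporter-negative libraries, a log2 fold change of 1.18 (edgeR with Benjamini-Hochberg, adjusted p = 5.81e-06). PLA2G4A, the gene of a cytosolic phospholipase A2 and the nearest coding gene at 81.7 kb, rose with a log2 fold change of 1.63.

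Over the 198 genes, 54 of the 60 calls were kept with inner counts taken away, 6 were lost and 4 were gained. Of the 240 genes, 212 still reached 3 CPM in a line and 28 did not. Among the 48 with no overlapping gene at all and 3 CPM in both lines, 7 rose and 9 fell. Among all 17003 tested genes at 3 CPM in both lines, 15.8% rose and 15.9% fell. The shares among all genes without an overlapping gene at that level are not given.

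**Figure D4:**
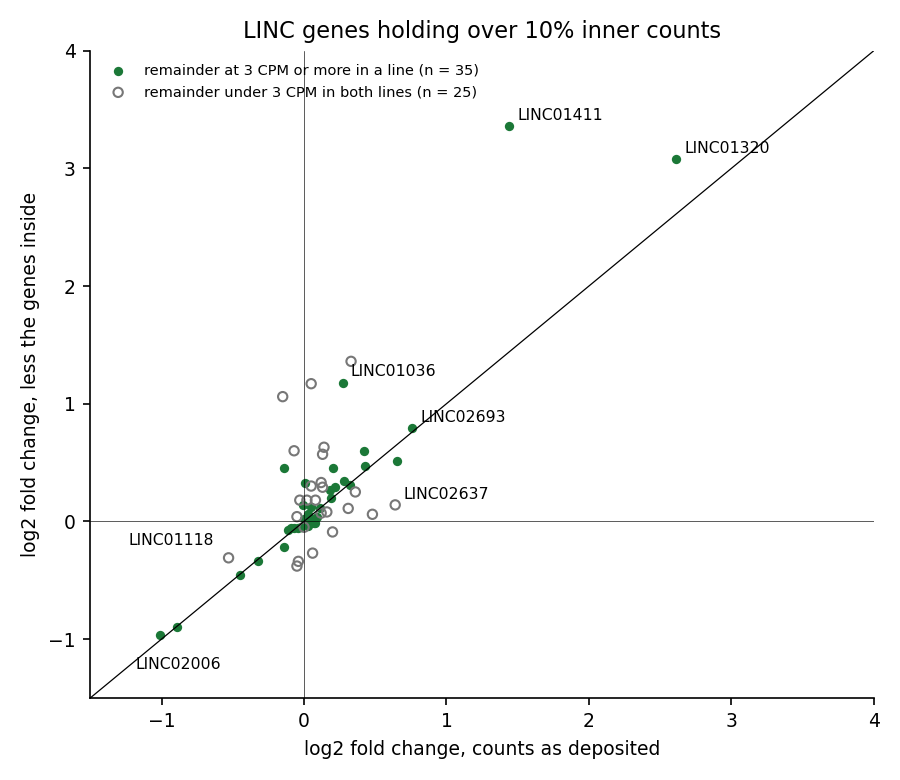
Log2 fold change (reporter-positive over reporter-negative) of the 60 LINC genes at 3 CPM in both lines with over 10% of counts at inner genes, as deposited (horizontal) and less the inner genes (vertical), with the line of equality; filled points are the 35 whose remainder reached 3 CPM in a line and open points the 25 whose remainder did not. LINC01411 and LINC01036 lie above the line, at 3.36 against 1.44 and 1.18 against 0.27.

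Counts per kb of span give another order of the genes. The median over the 240 was 0.119 CPM per kb, with a range of 0.00388 to 13.5, against 0.767 CPM per kb for 13081 protein-coding genes at 3 CPM or more, and 40 LINC genes lay above that coding median. Spans ran from 1.47 to 1233 kb with a median of 96.3 kb, and merged exons made up a median of 3.15% of the span. Of the 12 genes with the most counts, 2 were among the 12 highest per kb of span and 5 among the 12 highest per kb of merged exons. LINC02637 was highest with 16.5 CPM per kb in the reporter-positive and 10.6 CPM per kb in the reporter-negative line, through the pseudogene named above.

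LINC00973, of 2.04 kb, came next with 11.4 CPM per kb in the reporter-positive and 11.6 CPM per kb in the reporter-negative line, a difference that did not pass (edgeR with Benjamini-Hochberg, adjusted p = 0.883). It lies inside ENSG00000239462, another noncoding gene. LINC00705 had 3.30 CPM per kb in the reporter-positive and 6.86 CPM per kb in the reporter-negative line. The coefficient of variation between libraries had a median of 7.93% in the reporter-positive and 6.11% in the reporter-negative line.

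**Figure D5:**
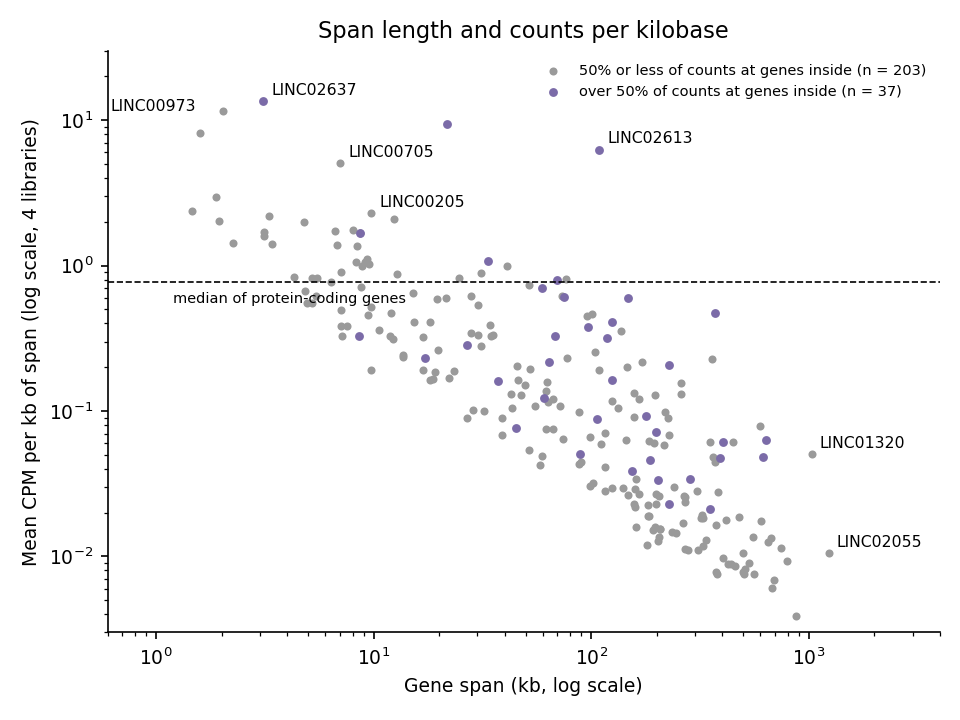
Mean CPM per kb of span over 4 libraries (vertical, log scale) against span in kb (horizontal, log scale) for the 240 LINC genes; dark points are the 37 with over 50% of counts at inner genes, grey points the other 203, and the dashed line the median of protein-coding genes, 0.767. Counts per kb are lower in longer genes, which follows in part from the threshold on counts, and LINC02637 and LINC00973 are the highest.

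A list of 63 LINC genes with published roles had 39 among the 240, of which 34 reached 3 CPM in both lines. Of these, 3 rose, 8 fell and 23 did not pass, with a median log2 fold change of -0.04, against 0.00 over the 17003 genes. These counts are 8.82% higher and 23.5% lower, against 15.8% and 15.9% of the 17003 genes. LINC00662 had 1451 and 1315 counts in the reporter-positive libraries, against 1143 and 1083 in the reporter-negative libraries, and rose with a log2 fold change of 0.43 (edgeR with Benjamini-Hochberg, adjusted p = 4.47e-04). LINC01278 rose with a log2 fold change of 0.65, with 46.8% of its counts at inner genes, chiefly the coding gene SPIN4. LINC00511, reported as oncogenic in breast cancer, had 1475 and 1182 counts in the reporter-positive libraries and 1289 and 1171 in the reporter-negative libraries. Its log2 fold change of 0.23 passed narrowly (edgeR with Benjamini-Hochberg, adjusted p = 0.0489), and the adjusted p lay between 0.0619 and 0.424 in 7 alternatives, among them those without the reporter-negative library numbered 1 (0.151) or 2 (0.424) or the reporter-positive library numbered 1 (0.0762).

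Among those that fell, LINC00261, next to the endoderm transcription factor gene FOXA2, had 1393 and 1368 counts in the reporter-positive libraries, against 1943 and 1905 in the reporter-negative libraries, a log2 fold change of -0.35 (edgeR with Benjamini-Hochberg, adjusted p = 0.00376). FOXA2 itself, 2.36 kb away, had a log2 fold change of -0.20 that did not pass (edgeR with Benjamini-Hochberg, adjusted p = 0.0673). ENSG00000283932, a coding gene that overlaps the spans of both, fell with a log2 fold change of -0.28 (edgeR with Benjamini-Hochberg, adjusted p = 0.00923). Reads of LINC00261 and ENSG00000283932 may thus be shared. LINC00963, described in prostate cancer, had 933 and 657 counts in the reporter-positive libraries, against 1168 and 1170 in the reporter-negative libraries, a log2 fold change of -0.45 (edgeR with Benjamini-Hochberg, adjusted p = 0.00117), and 26 of 37 tested coding genes within 1 Mb passed as lower, against 14.8% of all tested protein-coding genes. LINC01089, LINC01128 and LINC01410 fell by 0.45, 0.31 and 0.41 on the log2 scale. The last did not pass without the reporter-negative library numbered 1 (adjusted p = 0.279, edgeR) or 2 (0.0885) or the reporter-positive one numbered 2 (0.166), or by DESeq2 (0.101), and LINC01128 did not without the reporter-negative library numbered 1 (0.318) or by DESeq2 (0.0705). LINC00205, LINC00842 and LINC00589 complete the 8 and are described above.

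Those that did not pass included LINC-PINT, a p53-induced RNA, with 2463 and 1676 counts in the reporter-positive libraries and 2624 and 2222 in the reporter-negative libraries. Its libraries overlapped between lines and it did not pass (adjusted p = 0.448, edgeR). It passed once the reporter-positive library numbered 1 was left out, with a log2 fold change of -0.27 (adjusted p = 0.00229, edgeR). LINC00467, which encodes a mitochondrial micropeptide, had a log2 fold change of 0.18, LINC00941 of -0.07 and LINC00461, the brain-expressed host of MIR9-2, of 0.06, whose sign was negative under total count scaling and without either the reporter-negative or the reporter-positive library numbered 1. Of the list, LINC00839, LINC01615 and LINC00645 reached 3 CPM in the reporter-positive line alone and LINC00665 and LINC00899 in the reporter-negative line alone.

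Around the LINC genes, tested coding genes within 1 Mb that do not overlap them were read in the same fit. At least 3 such genes lay near 23 LINC genes that rose, and their median log2 fold change was above 0 for 17 of these, with a median of 0.13 and a range of -0.35 to 0.74. For 26 that fell, it was below 0 for 13, with a median of -0.04 and a range of -0.61 to 0.16. For 118 that did not pass, the median was 0.04. The nearest coding gene passed for 23 of 57 called LINC genes with such a gene, in the same direction for 18 and in the opposite direction for 5. That is 40.4%, against 24.8% (33 of 133) for LINC genes that did not pass, where the signs were the same in 23 of the 33. Of all 16957 protein-coding genes tested, 14.7% rose and 14.8% fell. The difference between these shares was not tested.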

How the data were processed

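Total RNA of the reporter-positive and reporter-negative lines, 2 libraries each and all labelled as 1 batch, was sequenced from 1 ug of RNA with an NEB Ultra II kit, per the labels' protocols. Raw counts of reads by Ensembl gene, in a column for each library, were deposited by the authors and were not altered. HISAT2, Bowtie2, DESeq2 and hg19 are named without roles or versions, per the submitters' processing notes. Which counter, annotation and strand setting made them is not given in the sources used. All 43714 IDs are in GENCODE release 29, built on GRCh38, which gave spans and positions, and 43289 matched a current symbol. The IDs thus match another build than the one named.

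The test was that of edgeR 4.0.16 under R 4.3.3 (TMM, filterByExpr by line with minimum count 10 and minimum total count 15, robust quasi-likelihood F test, line as the only term) over 30952 genes, with Benjamini-Hochberg adjustment at 0.05. It was tested on simulated data first. The level rule and the values at its threshold use CPM on column totals, and all other CPM, given as means with SD over 2 libraries, use TMM-scaled totals. Tests are read for genes at 3 CPM in both lines, because those at 3 CPM in 1 line were chosen through their difference. Depths of 55894092 to 63034563 counts give small counting error for genes with many counts and a larger one for genes with few. Overlaps are of whole gene spans, and a difference less inner genes subtracts the counts of listed genes wholly inside the span, the most counted first and none overlapping another, an alternative chosen after seeing the data.

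The genes and lists were chosen with earlier results of these data known. Named genes are the title gene, the 12 with the most CPM, the 10 largest rises and falls, those at 3 CPM in 1 line, those next to the threshold and a list with published roles. LINC02637, LINC02893, LINC00592 and LINC01036 were named after their values were seen. Alternatives tried were scaling by RLE or by total counts, no filter or 1 CPM in 2 libraries, DESeq2 1.42.0, limma-voom (limma 3.58.1), the library number as a block, each library left out, genes without overlap, and other level thresholds. Python 3.11.15 with pandas 2.3.3 did the rest.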

Additional observations from a re-analysis of the deposited data

How the results depend on the processing

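Of 743 fits of 61 named genes under the alternatives, 684 kept direction and side of the threshold, or moved by less than 1 SE for genes without a test. The counts of 32 rises and 28 falls became 19 rises with total count scaling, 7 rises and 9 falls among the 48 genes fitted without an overlapping gene, which are fewer genes, and 18 falls at a threshold of 5 CPM, where 160 genes entered. Leaving out 1 library each gave 24 to 38 rises and 19 to 34 falls, the lone library being assumed to vary like the pair of the other line. DESeq2 gave 26 and 22, limma-voom 29 and 28, and counts less inner genes 31 and 27. The level threshold at 2 CPM let in 315 genes, with 43 rises and 30 falls, and the mean over 4 libraries 218, with 45 rises and 30 falls, which takes in genes at 3 CPM in 1 line. Of the 12 genes with the most counts, 2 are in the top 12 per kb of span and 5 per kb of exons. The library number as a replicate block gave 39 rises and 34 falls. Deviations of libraries with the same number correlated at -0.0258, and the numbers are only names.

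Signs turned, for genes that did not pass, with total count scaling for LINC02067 (-0.04), LINC01500 (-0.04), LINC00886 (-0.01), LINC02211 (-0.01), LINC01138 (-0.05) and LINC00461 (-0.02). With inner counts taken away they turned for LINC00886 (-0.01), LINC02211 (-0.01) and LINC01138 (-0.04). Over the fits that left out 1 library, log2 fold changes ran from -0.15 to 0.07 for LINC02613, -0.01 to 0.11 for LINC01500, -0.03 to 0.17 for LINC00886, -0.27 to 0.01 for LINC-PINT, -0.16 to 0.23 for LINC00461 and -0.09 to 0.04 for LINC00973. The cause was not tested. With 2 libraries per line the spread of single genes rests on that shared across genes.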
